A study of Eublepharis macularius with 8 samples.

Results

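The enzymes and transporters of glycolysis and of the tricarboxylic acid (TCA) cycle were followed in teeth of the leopard gecko, Eublepharis macularius, whose teeth are shed and renewed for as long as the animal lives. The set was a list of 37 gene symbols, 19 for glycolysis and 18 for pyruvate entry and the TCA cycle, matched exactly to the row names of a table of 22488 rows. Of these, 31 were matched, 16 and 15 of the 2 pathways, and all 31 passed the filter on low counts. HK2, PFKM, LDHA, IDH2, IDH3A and IDH3B were not matched by symbol and are not analysed here. Bulk RNA was read from 4 libraries of functional teeth, those in use, and 4 libraries of developing teeth, which form to replace them. All samples were adult. Replicates 1 to 3 of either group were female and pooled 3 teeth each, while the male replicate 4 pooled 10 teeth in the functional and 11 in the developing group. The labels name biological replicates and give no strain, genotype or treatment. By sex, replicate 4 cannot share an animal with replicates 1 to 3. The labels do not say whether replicates 1 to 3 of a group came from separate animals. The spread behind each p-value is therefore that of these samples and may be partly technical.

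Glycolysis splits glucose into pyruvate in the cytosol and can run without oxygen, ending in lactate that leaves the cell with a proton. In mitochondria the pyruvate dehydrogenase complex turns pyruvate into acetyl-CoA, and the TCA cycle oxidizes it to feed the respiratory chain. Pyruvate dehydrogenase kinases switch that entry off by phosphorylating the complex. A tooth holds cells of unlike energy use, among them matrix-secreting odontoblasts and ameloblasts, pulp, vessels, and the mitochondria-rich, acid-secreting odontoclasts that resorb it.

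Libraries held between 14144573 and 30935120 estimated counts. The type I collagen genes took 28.9% to 32.9% of counts in functional libraries, against 20.4%, 18.4%, 5.65% and 4.31% in developing replicates 1 to 4. Counts were therefore scaled by TMM, which sets libraries on the bulk of their genes, and levels are CPM, the counts-per-million values that edgeR gives on the scaled library size. The summed level of the 8 markers of odontoblasts and bone, made up mostly of COL1A1 and COL1A2, was between 438855 and 482408 CPM in functional and between 41303 and 209491 CPM in developing teeth. The 8 matched markers of dental epithelium summed to between 334 and 1523 CPM in functional and between 4731 and 30969 CPM in developing teeth. DSPP, the gene of a dentin matrix protein, had between 3623 and 5308 CPM in functional and between 1493 and 6001 CPM in developing teeth, with overlap. In bulk tissue fewer cells of a type and less RNA per cell cannot be told apart.

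Neither pathway had a member past the test between functional and developing teeth. By edgeR's quasi-likelihood test with Benjamini-Hochberg adjustment over 15491 genes, 0 of 16 glycolysis members and 0 of 15 TCA cycle members had an adjusted p under 0.05. Over all genes tested, 2.81% passed, 0.800% higher and 2.01% lower in functional teeth. At an unadjusted p under 0.05 there were 6 of the 31 members, 19.4%, where 22.3% of all genes reached that level. DESeq2's Wald test called 2 members, both lower in functional teeth, which is 6.45% of the members against 11.0% of all genes it tested. In 4 members, 12.9%, the libraries of the groups did not overlap, and the same held for 15.0% of all genes. With only 31 members these shares are coarse, and they are not read as a depletion among the members. They rest on the same libraries and are not separate observations. On library totals without scaling factors, where the median log2 fold change of all genes was -0.59, 18 members were called lower in functional teeth, 9 in each pathway.

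On the TMM scale the differences were small, and for most members the data bound them. The 95% intervals take that scaling as given. The median log2 fold change, functional minus developing, was -0.02 for glycolysis and 0.16 for the TCA cycle, against 0.00 over all genes. Of the 31 members, 17 had a positive and 14 a negative value, and the whole range ran from -0.82 for ALDOC to 0.83 for SLC16A3. In 26 members the 95% interval of the difference lay within 2-fold in both directions, 12 in glycolysis and 14 in the TCA cycle. For all genes tested that share was 58.3%, against 83.9% of the members, which had at least 44 counts in every library. The median interval reached 0.43 to either side of a member's log2 fold change, before any adjustment over genes. Differences well under that size were not detectable in a typical member. Larger ones could also miss the adjusted threshold, as did PDK3 at -0.80 and OGDH at -0.56.

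**Figure D1:**
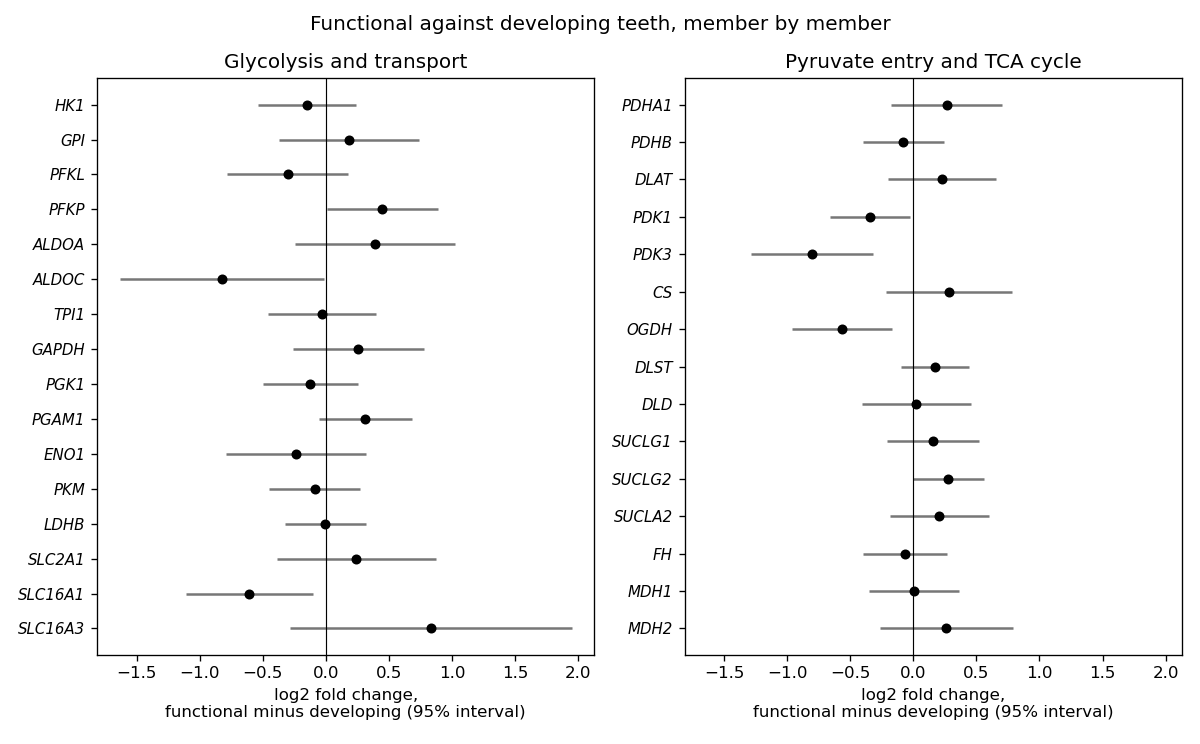
Log2 fold change (functional minus developing) of each matched member on the x axis, with its 95% interval from the edgeR fit, for glycolysis (left) and the TCA cycle (right). Most intervals cross 0, and those of PDK3, OGDH, PDK1, SLC16A1 and ALDOC lie below it, and that of PFKP above it, without passing the adjusted test.

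At the head of glycolysis, the hexokinase gene HK1, whose product traps glucose by phosphorylation, had 37.02, 38.4, 38.2 and 37.8 CPM in functional replicates 1 to 4. It had 46.1, 30.99, 53.7 and 37.03 CPM in developing replicates 1 to 4, so the functional libraries lay close together inside the spread of the developing ones (log2 fold change -0.15 ± 0.17 (SE), adjusted p = 0.646). SLC2A1, the gene of the glucose transporter GLUT1, had 10.8, 10.9, 14.4 and 17.2 CPM in functional and 12.4, 6.35, 11.4 and 14.9 CPM in developing libraries. Those groups overlapped (0.24 ± 0.27, adjusted p = 0.639), as did those of GPI, the next enzyme after hexokinase (0.18 ± 0.24, adjusted p = 0.686).

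Phosphofructokinase catalyses the committed step, and its genes had values of opposite sign. PFKP, named for the platelet-type subunit, had 113, 126, 130 and 122 CPM in functional libraries and 109, 106, 83.9 and 61.9 CPM in developing libraries. Every functional library lay above every developing one, with developing replicates 1 and 2 close to the functional range. The log2 fold change was 0.45 ± 0.19 (adjusted p = 0.218), 0.31 in the 6 female libraries alone, and -0.12 on library totals without scaling factors. PFKL, the liver-type subunit gene, had 30.5, 28.3, 31.1 and 40.3 CPM in functional and 32.9, 29.4, 44.6 and 53.8 CPM in developing libraries, which overlapped (-0.30 ± 0.21, adjusted p = 0.426).

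No gene of the lower part of glycolysis passed the test between the groups, and the intervals bound the differences to unlike degrees. Triose phosphate isomerase (TPI1), phosphoglycerate kinase (PGK1), enolase (ENO1) and pyruvate kinase (PKM) had log2 fold changes of -0.03 ± 0.19, -0.12 ± 0.16, -0.24 ± 0.24 and -0.09 ± 0.16 in that order. GAPDH, the dehydrogenase gene often used as a loading control, had 0.26 ± 0.23 (adjusted p = 0.538), and 0.0087 without functional replicate 4. The 95% intervals ran from 0.578-fold to 1.25-fold for ENO1 and from 0.835-fold to 1.71-fold for GAPDH. PKM, the gene of the step that yields pyruvate, had 274, 250, 280 and 360 CPM in functional and 311, 257, 342 and 327 CPM in developing libraries. PGAM1, phosphoglycerate mutase, had 122, 156, 150 and 196 CPM in functional and 133, 122, 118 and 129 CPM in developing libraries (0.31 ± 0.16, adjusted p = 0.29). Here only functional replicate 1 lay within the developing range. LDHB, the lactate dehydrogenase subunit of the heart type in mammals, had 218, 237, 235 and 312 CPM in functional and 248, 259, 252 and 247 CPM in developing libraries. On the TMM scale its difference was close to zero, with a 95% interval from 0.797-fold to 1.25-fold. On library totals without scaling factors its log2 fold change was -0.60.

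The aldolase genes split a sugar phosphate into 2 trioses. ALDOC, the brain-type gene in mammals, had 4.29, 7.14, 8.73 and 3.09 CPM in functional libraries and 9.88, 7.92, 14.7 and 8.65 CPM in developing libraries. Functional replicate 3 lay above developing replicates 2 and 4, and the other functional libraries lay below every developing one (-0.82 ± 0.35, adjusted p = 0.218). ALDOA, the main gene of most tissues, averaged 258 ± 101 CPM in functional teeth, against 197 ± 39.0 CPM in developing teeth (SD, n = 4; 0.39 ± 0.28, adjusted p = 0.44). Its highest value, 402 CPM, was that of the male functional library.

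The monocarboxylate transporters carry lactate with a proton across the membrane. SLC16A1, the gene of MCT1, had 8.24, 7.62, 8.94 and 9.69 CPM in functional libraries. In developing libraries it had 18.0, 8.66, 12.6 and 13.2 CPM, and the groups overlapped only through developing replicate 2 (-0.61 ± 0.22, adjusted p = 0.164). SLC16A3, the gene of MCT4, which in mammals exports lactate from strongly glycolytic cells, had 3.499, 3.65, 4.86 and 11.4 CPM in functional and 5.70, 3.18, 2.28 and 1.9996 CPM in developing libraries. The highest value was again that of the male functional library, and developing replicate 1 lay above the female functional ones. The log2 fold change was 0.83 ± 0.49 (adjusted p = 0.352), 0.28 without functional replicate 4, and 0.10 in the 6 female libraries alone.

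**Figure D2:**
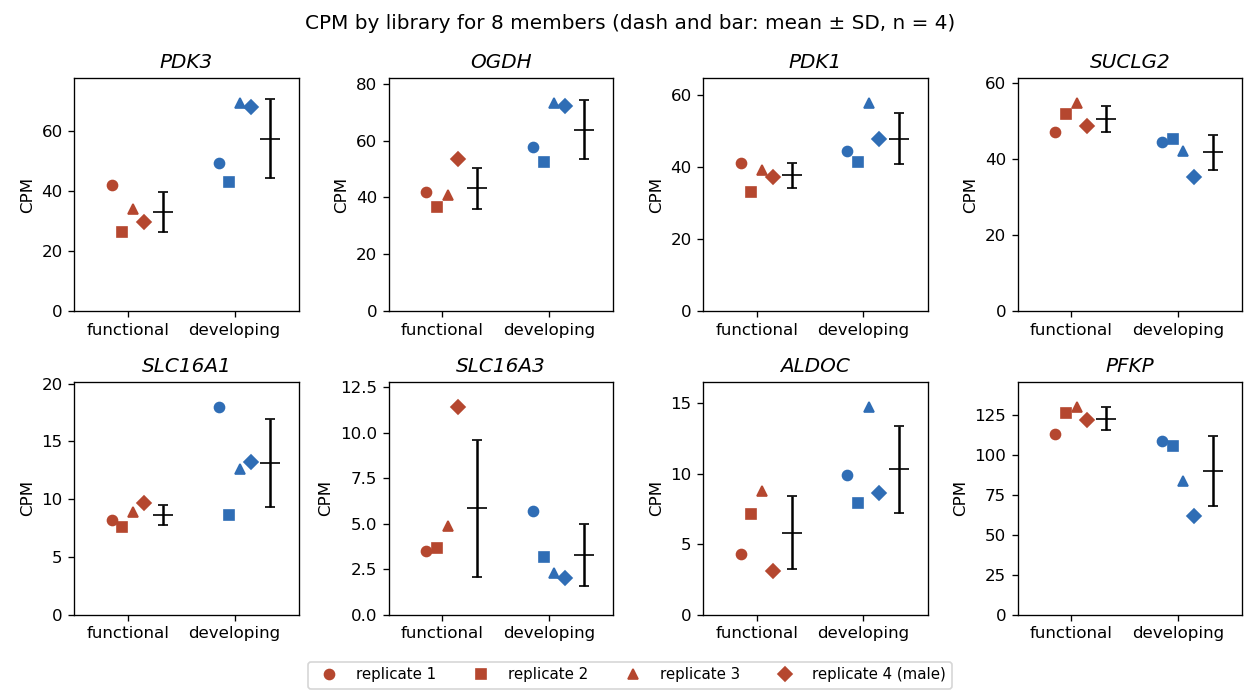
CPM (y axis, from 0) in each library for the members with the smallest p, with SUCLG2 and SLC16A3 added; marker shapes are replicates 1 to 4, and the dash with its bar is the mean ± SD (n = 4). On this TMM scale PDK3 and PDK1 lie lower, and PFKP and SUCLG2 higher, in all 4 functional libraries (the fold changes of PFKP and SUCLG2 are negative on library totals), whereas SLC16A3 is set apart mainly by functional replicate 4.

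At the entry of pyruvate into mitochondria stand the kinases that switch the pyruvate dehydrogenase complex off, of which PDK1 and PDK3 are members of the set. PDK3 had 41.8, 26.2, 33.8 and 29.7 CPM in functional libraries, against 49.4, 42.8, 69.1 and 67.8 CPM in developing libraries. The groups did not overlap, and the log2 fold change of -0.80 ± 0.21 was the one with the smallest p among the members (adjusted p = 0.0817 in edgeR). DESeq2 gave an adjusted p of 0.0195. PDK1 had 41.2, 32.9, 39.3 and 37.2 CPM in functional libraries and 44.3, 41.3, 57.6 and 47.7 CPM in developing libraries. Those groups came close, at functional replicate 1 and developing replicate 2, without overlapping (-0.34 ± 0.14, adjusted p = 0.195). It follows from the lack of overlap that both genes were lower in the functional library in each of the 4 replicate numbers. The other two kinase genes, named after their values were seen, had differences of the opposite sign. PDK2 had 55.0, 57.8, 100.3 and 93.0 CPM in functional and 49.995, 41.5, 55.8 and 48.8 CPM in developing libraries, with overlap (0.64 ± 0.23, adjusted p = 0.157). PDK4 averaged 31.8 ± 9.53 CPM in functional teeth, against 24.8 ± 4.73 CPM in developing teeth (SD, n = 4; 0.36 ± 0.23, adjusted p = 0.391). On library totals without scaling factors PDK2 had 0.04 and PDK4 had -0.21.

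The subunits of the complex itself are PDHA1 and PDHB of its first enzyme, DLAT of the second and DLD of the third, which other dehydrogenase complexes share. PDHA1 had 86.2, 107, 108 and 97.6 CPM in functional and 101, 96.4, 75.0 and 59.8 CPM in developing libraries, with overlap (0.26 ± 0.19, adjusted p = 0.449). PDHB, DLAT and DLD had log2 fold changes of -0.08 ± 0.14, 0.23 ± 0.19 and 0.02 ± 0.19, with adjusted p-values from 0.508 to 0.952. For all 4 subunit genes the 95% interval lay within 2-fold.

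Within the cycle, OGDH had the value nearest the threshold. It encodes the first enzyme of the 2-oxoglutarate dehydrogenase complex, a controlled step, and had 42.0, 36.5, 40.8 and 53.5 CPM in functional libraries and 57.9, 52.3, 73.1 and 72.3 CPM in developing libraries. Only functional replicate 4 and developing replicate 2 overlapped (log2 fold change -0.56 ± 0.17, adjusted p = 0.115 in edgeR and 0.0482 in DESeq2). In each replicate number the functional library was the lower one. DLST, the second enzyme of the same complex, had 53.2, 60.5, 65.5 and 59.4 CPM in functional and 55.7, 55.8, 50.8 and 49.6 CPM in developing libraries. Only functional replicate 1 lay within the developing range, and the difference had the opposite sign to that of OGDH (0.17 ± 0.12, adjusted p = 0.428).

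Citrate synthase (CS), which starts the cycle, had 145, 137, 159 and 246 CPM in functional and 151, 152, 110 and 153 CPM in developing libraries (0.28 ± 0.22, adjusted p = 0.484, and 0.06 without functional replicate 4). SUCLG2, the subunit that makes succinyl-CoA ligase GTP-forming, had 47.0, 51.7, 54.6 and 48.7 CPM in functional and 44.5, 45.2, 42.0 and 35.1 CPM in developing libraries. The groups did not overlap and the difference was small (0.28 ± 0.12, adjusted p = 0.232). It was -0.31 on library totals without scaling factors. SUCLA2, the ATP-forming counterpart, and SUCLG1, the subunit both forms share, had 0.21 ± 0.17 and 0.16 ± 0.16. Fumarase (FH) and the cytosolic and mitochondrial malate dehydrogenases (MDH1 and MDH2) had -0.07 ± 0.15, 0.01 ± 0.16 and 0.26 ± 0.23, with adjusted p-values from 0.541 to 0.987.

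PDK3 and OGDH had their highest values in developing replicates 3 and 4, the libraries with the least type I collagen. The markers of dental epithelium were also highest there, at 19345 and 30969 CPM in sum, against 4731 and 9034 CPM in developing replicates 1 and 2. The enamel matrix genes AMELX, with 9496 and 17402 CPM, and AMBN, with 7586 and 10269 CPM, made up most of the sum in developing replicates 3 and 4. The epithelial genes EPCAM and TP63 overlapped between functional and developing teeth, with log2 fold changes of 0.16 and 0.12. The 9 matched cell division markers summed to between 31.9 and 63.4 CPM in functional libraries, against 107, 85.6, 244 and 226 CPM in developing replicates 1 to 4. Of the 8 tested cell division genes 5 fell in functional teeth in edgeR, where 2.01% of all genes fell, and all 8 in DESeq2, with a median log2 fold change of -1.97. Without developing replicates 3 and 4 that median was -1.22 and 0 of them passed, in a fit where 8 genes passed in all. Without developing replicates 3 and 4, an alternative chosen after seeing the data, the log2 fold change was -0.48 for PDK3 (adjusted p = 0.384), -0.34 for OGDH (adjusted p = 0.468) and 0.21 for PFKP. The part of epithelial or dividing cells in these values was not tested.

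Ratios between genes that serve the same step do not depend on how libraries are scaled. They were compared within each library as log2 ratios of counts, by an exact two-sided permutation test over the 8 libraries, whose smallest possible p is 0.0286. The ratio of PDK3 to PDK1 was 0.02, -0.33, -0.21 and -0.33 in functional and 0.16, 0.05, 0.26 and 0.51 in developing libraries. The groups did not overlap, with a difference of -0.46 (exact permutation p = 0.0286, adjusted p = 0.0571 over 6 ratios). SLC16A3 to SLC16A1 gave -1.23, -1.06, -0.88 and 0.24 in functional and -1.66, -1.44, -2.45 and -2.71 in developing libraries. That is a difference of 1.33, or 0.79 in the female libraries alone, again without overlap and with the same p-values in this exact test.

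ALDOC to ALDOA gave -5.48, -4.69, -4.86 and -7.01 in functional and -4.58, -4.56, -3.32 and -4.64 in developing libraries. These did not overlap either, by a margin of 0.05 (difference -1.23, exact permutation p = 0.0286, adjusted p = 0.0571). Without functional replicate 4 the difference was -0.73. PFKP to PFKL, a ratio chosen after PFKM was found unmatched, differed by 0.75 with overlap (exact permutation p = 0.114). MDH2 to MDH1 and SUCLG2 to SUCLA2 differed by 0.23 and 0.06 (exact permutation p = 0.286 and 0.571). No ratio passed after adjustment over the 6. The 3 that did not overlap had the smallest p that the unpaired test can give. With only these 3 at that p, the adjusted p could not fall under 0.0571. The adjusted test therefore could not decide about them. Taking same-numbered libraries as pairs, an exact sign-flip test gave each of the 3 a p of 0.125, the smallest possible with 4 pairs. Groups without overlap always give that value, so the paired test adds nothing to the lack of overlap.

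**Figure D3:**
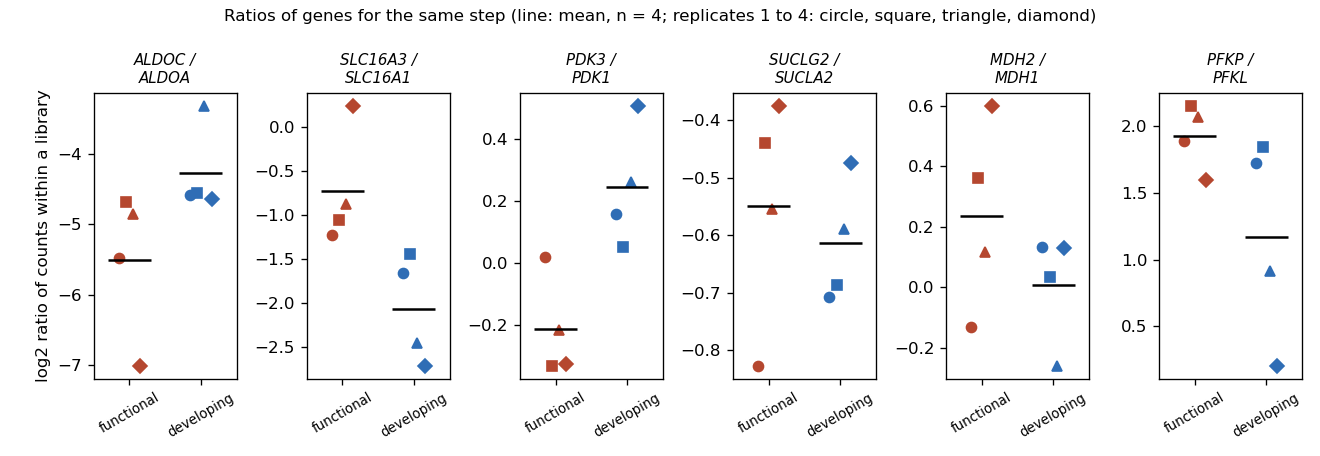
Log2 ratio of counts within each library (y axis) for 6 pairs of genes that serve the same step; markers are replicates 1 to 4 and lines are means (n = 4). The functional libraries lie below the developing ones for ALDOC / ALDOA and PDK3 / PDK1, above them for SLC16A3 / SLC16A1, and among them for the other 3.

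Among single libraries, the male functional library carried the highest level of most glycolysis genes. Functional replicate 4 was the highest of the 8 libraries for 11 of 16 glycolysis members (68.8%) and 6 of 15 TCA cycle members (40.0%), where it was highest for 20.3% of all genes tested. GAPDH had 1379 CPM there, against 799, 709 and 831 CPM in the female functional libraries and between 651 and 850.0 CPM in developing libraries. MDH2 had 232 CPM there and between 108 and 151 CPM in the other 7. Without this library the log2 fold change, functional minus developing, was 0.10 for ALDOA, 0.016 for MDH2, 0.0039 for GPI, 0.10 for SLC2A1 and 0.0325 for SUCLG1, and that of ENO1 was -0.46. Relative to each gene's mean over the 8 libraries, the glycolysis members averaged -0.17, -0.19, 0.04 and 0.35 (log2) in functional and 0.11, -0.19, 0.02 and 0.04 in developing libraries. The TCA cycle members averaged -0.03, -0.14, 0.06 and 0.11 in functional and 0.10, 0.03, -0.02 and -0.11 in developing libraries. The groups overlapped in both pathways. Other libraries stood out at the low end. Developing replicate 4, also male, was the lowest for 7 of 15 TCA cycle members (46.7%), against 18.1% of all genes tested. Functional replicate 2 was the lowest for 6 of 16 glycolysis members (37.5%) and 5 of 15 TCA cycle members (33.3%), against 14.3% of all genes.

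Functional replicate 4 was also highest in the summed markers of resorbing cells and of macrophages. The 9 matched odontoclast markers, among them ACP5 and CTSK, summed to 395, 509, 695 and 1876 CPM in functional and to between 146 and 330 CPM in developing libraries. CTSK, MMP9 and ACP5, with 807, 523 and 423 CPM, made up most of the sum in functional replicate 4. NFATC1, of the same list, had 26.6 CPM there, against 41.3 CPM in functional replicate 2. The 10 matched macrophage markers summed to 169, 131, 132 and 388 CPM in functional and to between 54.3 and 79.8 CPM in developing libraries, with MARCO at 0. Skeletal muscle is a tissue rich in glycolytic enzymes. Its 12 matched markers, of which 6 passed the filter on low counts, summed to between 11.97 and 21.1 CPM in functional libraries. In developing libraries they summed to between 16.7 and 76.0 CPM, highest in replicate 3, where ACTA1 had 59.4 CPM. MYOG was at 0. The part of these cells in the values of replicate 4 was not tested.

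**Figure D4:**
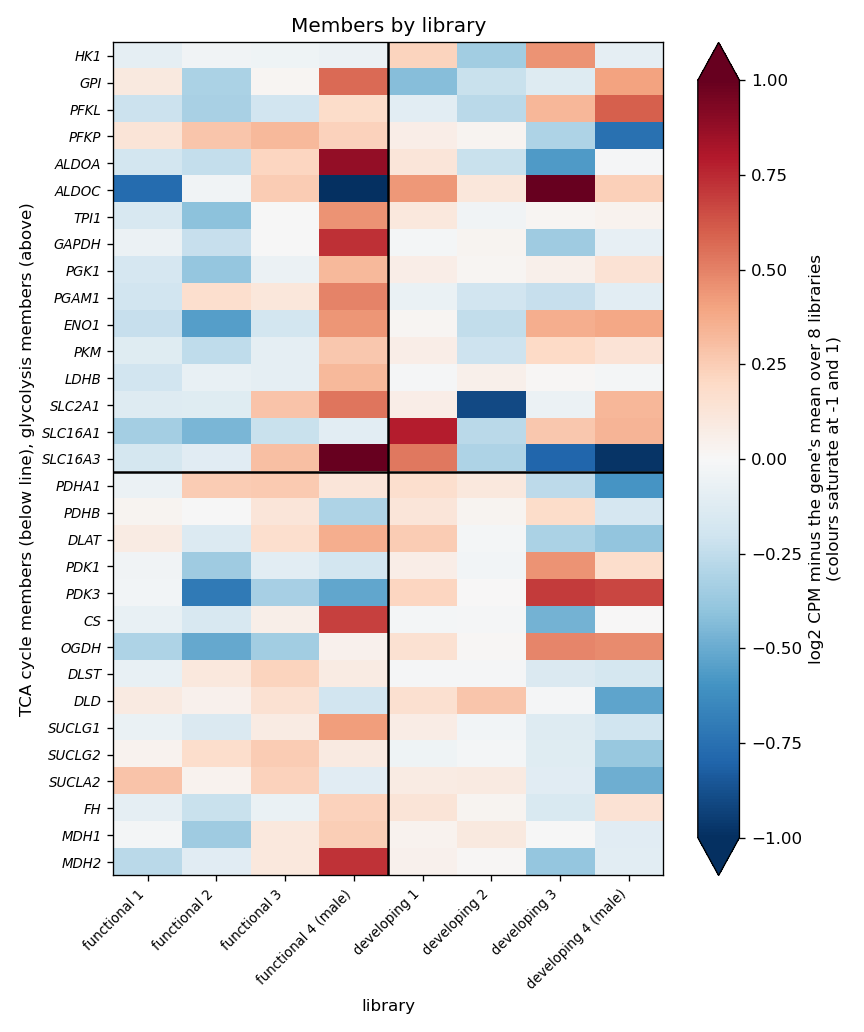
Log2 CPM of each matched member in each library, minus the gene's mean over the 8 libraries (colour, saturating at -1 and 1); rows are members in pathway order, and columns are functional then developing libraries. The column of functional replicate 4 is the reddest among glycolysis members, while the groups as a whole overlap.

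Male and female libraries were compared in a fit with tissue as a second term. Sex, the number of teeth pooled and the date of deposit cannot be told apart here. No member passed (0 of 31, against 4.68% of all genes). Without adjustment, 8 had a p under 0.05, of which 5 were higher in males and 3 lower. That is 25.8% of the members, against 21.0% of all genes. The value nearest the threshold was that of GPI, with 268 and 239 CPM in the male functional and male developing libraries, against 135 to 194 CPM in the 6 female libraries (male minus female 0.64 ± 0.16, adjusted p = 0.0658 in edgeR). Both male libraries lay above all female ones for this gene, and also for PGK1, ENO1, SLC2A1 and FH. They lay below all female ones for DLD, PDHB and SUCLA2. For FH the margin was thin, at 88.1 CPM in the lower male library and 87.4 CPM in the highest female one. For SUCLA2 the male functional library had 63.19 CPM, against 63.21 CPM in developing replicate 3. The share of all genes for which either held was not counted. ALDOA, ENO1, PFKL and CS had 0.58, 0.55, 0.51 and 0.46, and DLD, SUCLA2 and PDHB had -0.47, -0.40 and -0.32, with adjusted p-values from 0.128 to 0.23. The median was 0.33 over glycolysis members and -0.01 over TCA cycle members, against 0.01 over all genes. These medians pool both tissues. Relative to each gene's mean, the glycolysis members averaged 0.35 (log2) in the male functional library. In the male developing library they averaged 0.04, near the female developing values of 0.11, -0.19 and 0.02. Each tissue had 1 male library, so the interaction of tissue and sex takes its spread from the female libraries alone. With that limit no gene passed edgeR's test of it. The smallest adjusted p was 0.937, and 515 genes, among them 1 member, SLC16A3, had an unadjusted p under 0.05.

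Around the members, 2 genes fell in functional teeth. Of 28 tested genes next to the TCA cycle and pyruvate, 0 rose and 2 fell, where 2.01% of all genes fell. The median log2 fold change of the 28 was 0.17, and 19 of them had a positive value. ACO1 encodes cytosolic aconitase, which doubles as an iron-responsive RNA-binding protein. It had 192, 159, 144 and 248 CPM in functional libraries and 466, 563, 1383 and 1444 CPM in developing libraries. The groups stood well apart, and the log2 level fell by 2.37 ± 0.42 (edgeR adjusted p = 0.0345, or 0.0537 with a replicate block).

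ME3, the gene of the mitochondrial NADP-dependent malic enzyme, had 23.3, 22.6, 23.4 and 22.9 CPM in functional and 41.4, 30.1, 39.5 and 36.95 CPM in developing libraries. The functional libraries lay within 1 CPM of each other, and its log2 level fell by 0.68 ± 0.11 (edgeR adjusted p = 0.0289, or 0.0537 with a replicate block). Without any 1 functional library, or without developing replicate 3 or 4, neither gene passed, with adjusted p-values from 0.0582 to 0.116 and log2 fold changes from -2.54 to -2.11 for ACO1 and from -0.69 to -0.64 for ME3 in those fits. In the 6 female libraries they were -2.28 and -0.68 (adjusted p = 0.114 and 0.135). Without developing replicates 3 and 4 they were -1.46 and -0.62 (adjusted p = 0.0932 and 0.153). SLC25A1, the mitochondrial citrate carrier, was above every developing library in all functional libraries without passing edgeR's test (0.43 ± 0.14, adjusted p = 0.135, and 0.0287 in DESeq2). The groups came close, at 75.2 CPM in functional replicate 1 and 74.4 CPM in developing replicate 2. On library totals without scaling factors its log2 fold change was -0.16.

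Of 19 tested genes next to glycolysis 0 passed edgeR's test. In DESeq2 2 passed, PFKFB2 lower and PCK2 higher, where 11.0% of all genes passed. Without adjustment 7 of the 19 had a p under 0.05 in edgeR, 5 of them higher, where 22.3% of all genes reached that level. The median log2 fold change of the 19 was 0.27. PFKFB2 makes and breaks fructose 2,6-bisphosphate, the activator of phosphofructokinase. It had 7.05, 6.61, 5.79 and 5.69 CPM in functional libraries and 15.0, 13.1, 42.3 and 117 CPM in developing libraries. The spread among developing libraries was wide, and its log2 fold change of -2.89 ± 0.69 did not pass in edgeR (adjusted p = 0.064). Without developing replicates 3 and 4 it was -1.15. PCK2, mitochondrial phosphoenolpyruvate carboxykinase, averaged 54.7 ± 16.1 CPM in functional teeth, against 27.2 ± 9.13 CPM in developing teeth (SD, n = 4; 1.01 ± 0.30, adjusted p = 0.105). G6PC3, a widely expressed glucose 6-phosphatase, had 0.53 ± 0.17 (adjusted p = 0.127). On library totals without scaling factors PCK2 had 0.44 and G6PC3 had -0.05.

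**Figure D5:**
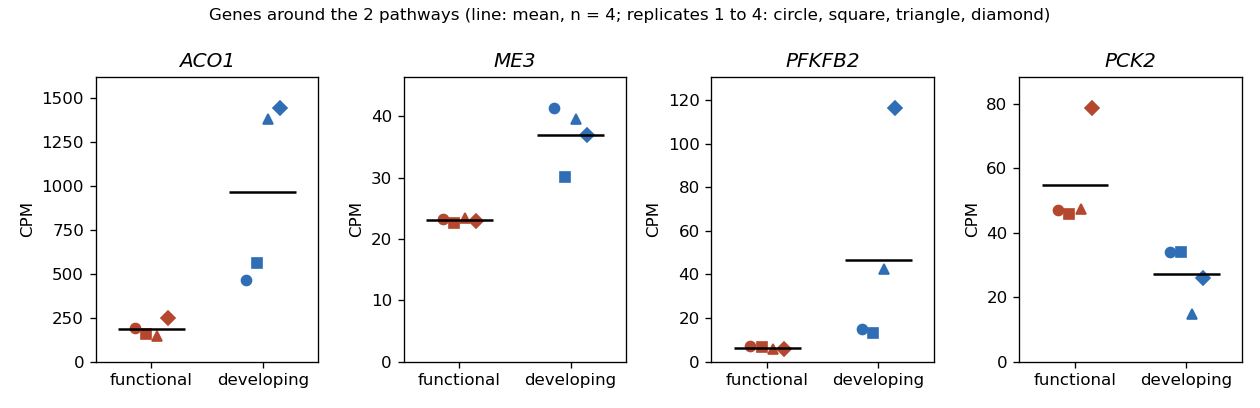
CPM (y axis, from 0) in each library for 4 genes next to the pathways; markers are replicates 1 to 4 and lines are means (n = 4). ACO1, ME3 and PFKFB2 lie lower and PCK2 higher in all functional libraries, and the developing values of ACO1 and PFKFB2 are highest in replicates 3 and 4.

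Of 19 tested regulators of these pathways 0 passed in edgeR and 0 in DESeq2. Without adjustment edgeR gave 3 of the 19 a p under 0.05, HIF1A and ESRRA higher and VHL lower. Of all genes, 22.3% reached that level, a larger share. HIF1A, which encodes the oxygen-sensitive activator of many glycolysis genes, had 560, 345, 399 and 394 CPM in functional and 295, 360, 192 and 165 CPM in developing libraries. Developing replicate 2 lay above functional replicate 2 (0.75 ± 0.28, adjusted p = 0.169). VHL, whose product marks HIF proteins for breakdown, had -0.36 ± 0.14 (adjusted p = 0.184). ESRRA, a nuclear receptor of mitochondrial genes, had 0.45 ± 0.19 (adjusted p = 0.218). On library totals without scaling factors HIF1A, VHL and ESRRA had 0.20, -0.97 and -0.12.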

How the data were processed

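RNA of 8 tooth libraries was measured with a stranded mRNA kit and paired reads of 59 bases, per the labels' protocols. The authors deposited estimated counts per gene, made with kallisto per the submitters' processing notes. The sources used here give no version, strand setting, transcript set or filter for it. Reads of near-identical transcripts are shared out by its model, so close paralogs are uncertain. Among the members, PDK3, HK1, PFKL and SLC2A1 had clearly fractional estimated counts, such as 644.875 for PDK3 in functional replicate 2. Counts were rounded. The 81 row names with no symbol in RefSeq assembly MPM_Emac_v1.0 (0.909% to 1.41% of a library) were left out. Genes were filtered with filterByExpr of edgeR 4.0.16 (R 4.3.3) and scaled by TMM, leaving 15491, and tested without a covariate by the quasi-likelihood test with limma 3.58.1, at an adjusted p under 0.05. Standard errors are the log2 fold change over the square root of F, and 95% intervals use the test's degrees of freedom. List scores use a prior count of 2, and ratios a pseudocount of 0.5. DESeq2 1.42.0, other scalings, no filter, a male term, left-out libraries and a replicate block were alternatives. The block was treated as a pairing, since deviations of same-numbered libraries correlated between 0.16 and 0.68 in all 4 pairs. Libraries of unlike number could correlate as well or better. Functional replicate 3 had 0.41 with developing replicate 1, against 0.31 with developing replicate 3. Functional replicate 2 had 0.17 with developing replicate 1, against 0.16 with developing replicate 2. These correlations therefore do not settle whether the numbers mark pairs. The scripts were tested on simulated counts. Members and lists were chosen with earlier results of these data known. All members were named, with library values for the 6 of each pathway with the smallest p, those without overlap, and controlling steps. Of the neighbouring pathway genes and the regulators, called genes and the 3 of each list with the smallest p were named. Ratios planned with HK2, PFKM or LDHA could not be made, nor could motifs be counted, as no promoter sequences were used here. Further marker lists were endothelium and red cells, with 0 of 10 and 0 of 6 tested genes called in edgeR (6 and 0 at an unadjusted p under 0.05), 3 and 0 in DESeq2, and medians of 0.79 and 0.20.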

Additional observations from a re-analysis of the deposited data

Results flagged for a closer look

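One member's value stood apart within its group. CS had 110.1 CPM in developing replicate 3, against 151, 152 and 153 CPM in developing replicates 1, 2 and 4. It was 1 of 62 groups of 4 examined, where chance alone would be flagged in about 1 of 20.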

How the results depend on the processing

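No glycolysis or TCA cycle member passed under RLE or upper quartile scaling, without a filter, with the replicate block, with a male term, among the 6 female libraries, or without any 1 library. On library totals without scaling factors 9 glycolysis and 9 TCA cycle members passed, all lower, with medians of -0.62 and -0.43. The median of all genes was then -0.59, with 7604 genes past the threshold, 151 higher and 7453 lower. DESeq2 called 2 TCA cycle members and 1680 genes, against 436 in edgeR. Genes called numbered 220 with the replicate block, 671 with the male term, 3 among female libraries, 8 without developing replicates 3 and 4, and between 8 and 641 when 1 library was left out. Without functional replicates 1, 2, 3 or 4 they were 168, 16, 12 and 8, and without developing replicates 3 or 4 they were 29 and 53. The TCA cycle median of 0.16 was -0.013 among female libraries, 0.0204 without developing replicates 3 and 4, and between 0.0325 and 0.218 without 1 library. Among the members 16 changed sign on library totals, 5 without developing replicates 3 and 4, and at most 3 under the other settings named here. The block changed no member's call. The standard errors of SLC16A3 and ALDOC, 0.49 and 0.35, were the largest among the members. Their counts were at least 44 and 71 in every library, and what widened the errors was not tested.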
